A study of Homo sapiens with 4 samples.

Results

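The genes described here form a run of neighbours on the long arm of human chromosome 11 (11q), from GPR83 to CUL5. The list has 53 members, chosen by name and taken in gene order; 52 had a probe set that the platform annotation ties to 1 gene, and 18417 genes had such a probe set in the whole series. For BIRC3 no probe set was found by that route. Where a member had several probe sets, the one with the highest mean over the arrays was used. The list was drawn up with the values of these same arrays known, and which difference between arrays guided it is not recorded. All 4 arrays are therefore counted as used by the choice, and the members' values below are a description with no test.

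The RNA came from SNU-16, a highly tumorigenic human gastric carcinoma cell line, after growth in BALB/c nude mice. In round 1, SNU-16 cells were placed in the stomach wall, and cells were recovered from the stomach tumour and from metastases in the ovary and cultured for 7 days. In round 2, the recovered cells were implanted in the stomach again, the stomach line giving a second stomach tumour and the ovary line a second ovarian metastasis. For round 2 the labels used here give no culture time. The unimplanted line was not analysed here, and every sample derives from xenografts of 1 human line. Nude mice lack a functional thymus but keep other immune cells. There were 4 arrays, 1 for each site and round, so each site (stomach, ovary) and each round (1, 2) had 2. A round 2 line descends from the round 1 line of its site, so the spread between arrays of a site is that between passages of a lineage and may be partly technical.

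This stretch holds several groups of genes with related functions. YAP1 encodes the transcriptional coactivator that the Hippo pathway restrains, and it lies beside BIRC2 and BIRC3, which encode inhibitor of apoptosis proteins with ubiquitin ligase activity; this neighbourhood is amplified in some carcinomas. Next to them lies a cluster of matrix metalloproteinases, secreted enzymes that cut collagens and other matrix proteins, and beyond it a cluster of inflammatory caspases, which act in inflammasome signalling and pyroptosis. MRE11 at the near end is a nuclease of DNA double-strand break repair, and CUL5 at the far end is the scaffold of a family of ubiquitin ligases. DNA copy number was not measured in this series.

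Promoters are shown for 4 members above the signal minimum, among them those with the largest differences described below, and for 2 metalloproteinases below it. Each covers 250 bases before to 50 after the start of the gene, from RefSeq (GRCh38.p14). In the 4 promoters of members above the signal minimum, capitals mark every CG dinucleotide. They belong to MAML2, a Notch coactivator, to ARHGAP42, a GTPase activating protein, to YAP1 and to CUL5.
MAML2, chr11:96343146-96343445, minus strand: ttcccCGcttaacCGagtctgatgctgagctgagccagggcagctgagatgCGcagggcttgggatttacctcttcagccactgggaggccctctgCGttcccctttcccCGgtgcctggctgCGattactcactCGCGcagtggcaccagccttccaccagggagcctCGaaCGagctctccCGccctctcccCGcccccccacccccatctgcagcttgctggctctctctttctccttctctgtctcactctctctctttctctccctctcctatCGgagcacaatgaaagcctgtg
ARHGAP42, chr11:100687038-100687337, plus strand: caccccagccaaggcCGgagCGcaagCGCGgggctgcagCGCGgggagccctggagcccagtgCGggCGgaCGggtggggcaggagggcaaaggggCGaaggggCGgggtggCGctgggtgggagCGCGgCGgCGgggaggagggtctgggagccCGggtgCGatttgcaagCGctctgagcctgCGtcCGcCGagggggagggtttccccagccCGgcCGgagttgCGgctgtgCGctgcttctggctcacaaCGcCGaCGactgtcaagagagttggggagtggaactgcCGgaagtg
YAP1, chr11:102110197-102110496, plus strand: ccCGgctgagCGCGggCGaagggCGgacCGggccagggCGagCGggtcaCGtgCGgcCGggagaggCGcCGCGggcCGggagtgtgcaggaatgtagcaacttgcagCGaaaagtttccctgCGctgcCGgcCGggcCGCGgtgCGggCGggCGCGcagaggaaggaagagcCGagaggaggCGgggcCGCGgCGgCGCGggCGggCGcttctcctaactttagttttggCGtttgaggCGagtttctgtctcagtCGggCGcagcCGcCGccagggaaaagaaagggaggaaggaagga
CUL5, chr11:108008648-108008947, plus strand: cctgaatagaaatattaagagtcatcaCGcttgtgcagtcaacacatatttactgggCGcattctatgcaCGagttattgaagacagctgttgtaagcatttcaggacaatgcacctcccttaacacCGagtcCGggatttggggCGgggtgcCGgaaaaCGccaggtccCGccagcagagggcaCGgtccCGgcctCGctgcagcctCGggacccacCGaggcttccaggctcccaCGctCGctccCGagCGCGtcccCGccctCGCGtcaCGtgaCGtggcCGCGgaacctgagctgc
In the 2 metalloproteinase promoters, of MMP7 (matrilysin) and MMP10 (stromelysin 2), capitals mark the letters TATAAA and TGACTCA on either strand; the second is the binding sequence of the AP-1 factors.
MMP7, chr11:102530698-102530997, minus strand: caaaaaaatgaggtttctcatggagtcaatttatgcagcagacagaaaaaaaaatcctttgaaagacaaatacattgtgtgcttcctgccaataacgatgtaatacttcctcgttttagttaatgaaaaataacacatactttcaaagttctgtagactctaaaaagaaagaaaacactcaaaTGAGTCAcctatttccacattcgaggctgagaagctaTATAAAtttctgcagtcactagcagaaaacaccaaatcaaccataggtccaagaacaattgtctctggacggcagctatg
MMP10, chr11:102780579-102780878, minus strand: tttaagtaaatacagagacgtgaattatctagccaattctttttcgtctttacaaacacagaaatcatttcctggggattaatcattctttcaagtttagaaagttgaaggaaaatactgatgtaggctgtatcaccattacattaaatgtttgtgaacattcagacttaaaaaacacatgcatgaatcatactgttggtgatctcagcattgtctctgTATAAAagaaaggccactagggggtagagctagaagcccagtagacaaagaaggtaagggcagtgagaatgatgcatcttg

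A promoter was found for 43 of the 52 members. The ratio of observed to expected CG dinucleotides had a median of 0.935 over 27 members above the signal minimum and 0.518 over 16 members below it, against 0.580 over 27305 promoters of the same length; the values of the 2 sets of members overlapped. It was 1.15 for YAP1, 0.957 for CUL5, 0.814 for ARHGAP42 and 0.501 for MAML2, and 0.424 for MMP7 and 0.206 for MMP10. TATAAA was present in all 4 metalloproteinase promoters of the table (MMP7, MMP8, MMP10 and MMP20), in 2 of the 27 promoters of members above the minimum (GPR83 and CWC15), and in 11.95% of all promoters. TGACTCA was present in MMP7, in none of those 27, and in 4.92% of all promoters. These are matches of letters in the printed window and not measured binding sites.

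Values are log2 intensities, and a level of 5.64, the 30th percentile over all rows, was taken as the signal minimum. Of the 52 members, 28 had a mean above it, 27 of them on every array, and 24 had a mean below it. GUCY1A2, a subunit of soluble guanylate cyclase, was the member above the minimum on average but not on every array. All 8 metalloproteinases of the list (MMP7, MMP20, MMP8, MMP10, MMP1, MMP3, MMP12 and MMP13) lay below the minimum, with values from 3.80 to 5.35 over all arrays. MMP7 stood at 3.99 in stomach and 4.11 in ovary in round 1, and at 4.20 and 4.35 in round 2. MMP1, interstitial collagenase, stood at 4.44 and 4.45 in round 1 and at 4.41 and 4.59 in round 2. Neither came near the minimum on any array, so these arrays give no order of sites or rounds for either.

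Of the inflammatory caspases, CASP1, which matures interleukin 1 beta, CASP5 and CARD16, a decoy of the CASP1 recruitment domain, lay below the minimum as well. CASP1 had 3.81 in stomach and 3.74 in ovary in round 1, and 3.84 and 3.81 in round 2. CASP4, a sensor of intracellular lipopolysaccharide, was the member of this cluster above the minimum. Its values were 7.77 and 7.82 in round 1 and 8.01 and 7.72 in round 2, and the sites and the rounds overlapped. The other members below the minimum were the Hippo adaptor AMOTL1, SESN3, a sestrin that restrains mTORC1, CNTN5, PGR (the progesterone receptor), the cation channel gene TRPC6, ANGPTL5, DYNC2H1 (the dynein motor of cilia), PDGFD, GRIA4 (a glutamate receptor), KBTBD3, ELMOD1, SLN (a regulator of the calcium pump) and RAB39A. The 24 members below the minimum had values from 3.74 to 5.76 and a median range over the 4 arrays of 0.18, against 0.23 over all genes below the minimum.

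**Figure D1:**
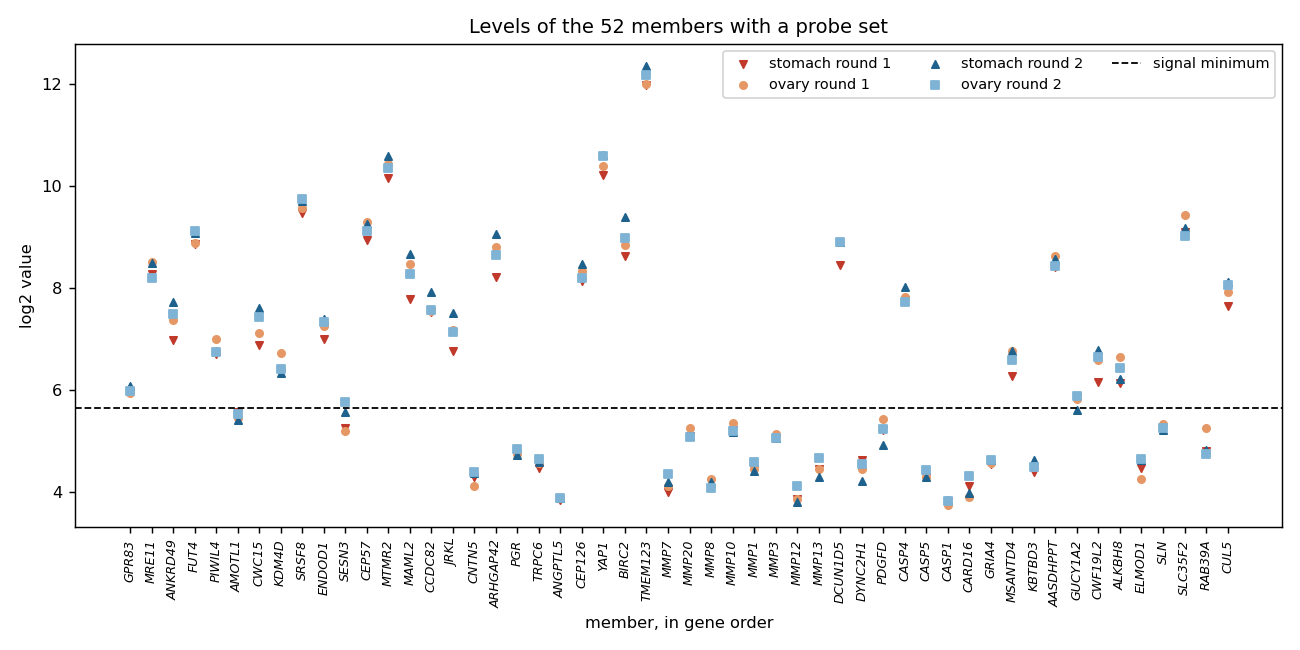
Log2 values of the 52 members with a probe set (y axis) in gene order (x axis), 1 symbol per array, with the signal minimum of 5.64 as a dashed line. The metalloproteinase and caspase clusters lie under the line apart from CASP4, and levels of different members are not comparable because each has its own probes.

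Among the 28 members above the minimum, the round 1 stomach array was usually the lowest and the round 2 stomach array often the highest. The median range over the 4 arrays was 0.41, against 0.26 over all 14547 genes above the minimum. Round 1 stomach was the lowest of the 4 arrays in 23 of the 28, where the same held for 20.5% of all genes. Round 2 stomach was the highest in 16 of the 28, against 20.2% of all genes. The round 2 sites are those of the titles, and the descriptions of these samples name them inconsistently. The round 1 stomach value was below the mean of the other 3 arrays in 27 of the 28, against 46.3% of all genes. The median difference was -0.29 (1.22-fold lower), while the median over all genes was 0.012. The round 1 stomach value was at least 0.32 lower in 11 of the 28, against 3.75% of all genes. Because the list was chosen with these arrays known, no support is taken from these counts. Over all 52 members with a probe set, 45 were below the mean of the others, with a median of -0.13, against 45.2% of all genes with a probe set.

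**Figure D2:**
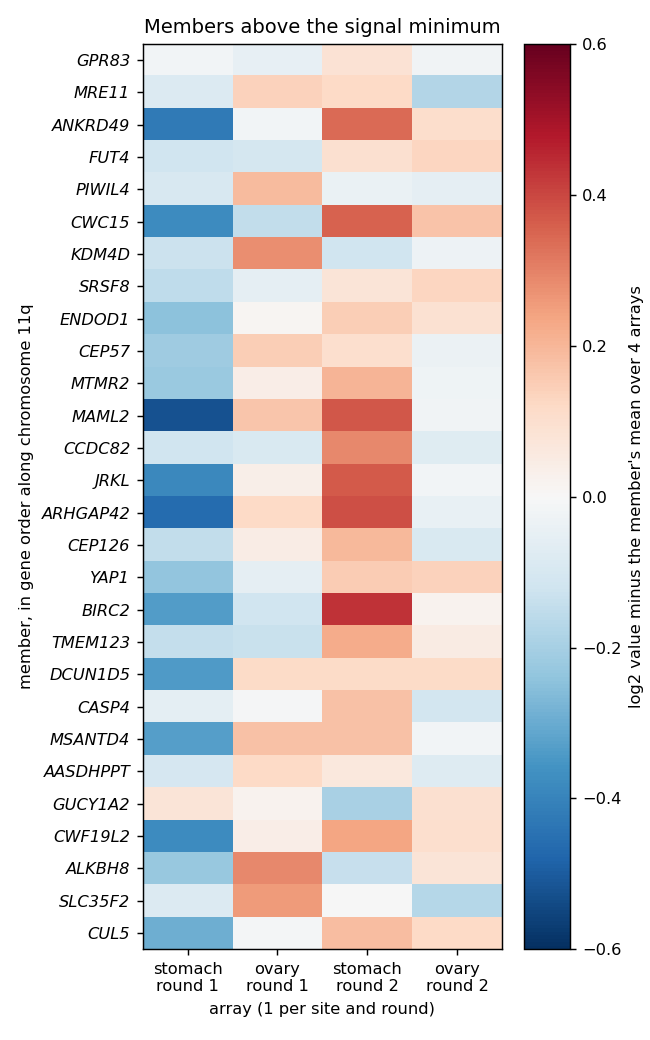
Each row is a member above the signal minimum, in gene order from GPR83 to CUL5, each column 1 of the 4 arrays, and colour gives the log2 value minus the member's own mean (blue lower, red higher). The round 1 stomach column is the lowest of its row in 23 of 28 members and the round 2 stomach column the highest in 16.

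Members that regulate Hippo, Notch and cell death signalling showed the pattern in all 4 that were above the minimum. MAML2 (probe set 7951133) had 7.77 in stomach and 8.46 in ovary in round 1, and 8.67 and 8.27 in round 2. Round 1 stomach was the lowest and round 2 stomach the highest, 1.86-fold apart, so the ovary values (8.37 ± 0.13, SD, n = 2) fell inside the span of the stomach values (8.22 ± 0.63, SD, n = 2). BIRC2 (probe set 7943424) had 8.63 and 8.84 in round 1, and 9.39 and 8.98 in round 2. Both round 2 arrays of BIRC2 were above both round 1 arrays, the stomach lines being 1.70-fold apart. YAP1 (probe set 7943398) had 10.21 and 10.40 in round 1, and 10.60 and 10.58 in round 2. The rounds did not overlap for YAP1 (10.30 ± 0.13 in round 1 and 10.59 ± 0.012 in round 2, SD, n = 2), while the sites did. TMEM123, which encodes the membrane mucin porimin, differed by 0.37 between rounds in stomach and 0.18 in ovary.

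The cullin ligase members above the minimum were CUL5 and DCUN1D5, which promotes the attachment of NEDD8 to cullins. CUL5 (probe set 7943580) had 7.63 in stomach and 7.91 in ovary in round 1, and 8.11 and 8.05 in round 2. Its lowest array was round 1 stomach, 1.31-fold under the mean of the others, and the rounds did not overlap. DCUN1D5 had 8.45 on the round 1 stomach array and the same 8.90 on each of the other 3. Its values were equal to 4 decimals there, so its spread among those arrays cannot be read.

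Of the 7 members of DNA repair, chromatin and RNA processing above the minimum, 6 were lowest in round 1 stomach, MRE11 being the exception. MRE11 had 8.28 in stomach and 8.50 in ovary in round 1, and 8.48 and 8.18 in round 2. Its lowest array was round 2 ovary, and both sites and both rounds overlapped. CWC15, a spliceosome component, had 6.88 and 7.11 in round 1, and 7.61 and 7.43 in round 2, with no overlap of the rounds. CWF19L2, a protein of the late spliceosome, had 6.16 and 6.58 in round 1, and 6.78 and 6.64 in round 2, again with the rounds apart. ALKBH8, a tRNA methyltransferase of the wobble uridine, had 6.12 and 6.64 in round 1, and 6.21 and 6.43 in round 2. For ALKBH8, as for KDM4D, both stomach arrays lay under both ovary arrays. The histone demethylase KDM4D, the Argonaute family gene PIWIL4 and the splicing factor gene SRSF8 had ranges over the arrays of 0.41, 0.29 and 0.28, with round 1 stomach the lowest in each.

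The remaining members with the largest ranges came from several functions. ARHGAP42 (probe set 7943349) had 8.21 in stomach and 8.79 in ovary in round 1, and 9.07 and 8.63 in round 2. Round 1 stomach was the lowest and round 2 stomach the highest, 1.80-fold apart. A second probe set of ARHGAP42 (7943347) did not show this, with 7.41 and 7.29 in round 1 and 7.32 and 7.37 in round 2, so the probe sets of this gene disagree. CCDC82 was the other member with a second probe set above the minimum. That probe set had 6.73 and 7.08 in round 1, and 7.28 and 7.29 in round 2, with round 1 stomach the lowest as on the first (7.52, against 7.55, 7.93 and 7.57).

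ANKRD49, an ankyrin repeat gene, had 6.97 in stomach and 7.37 in ovary in round 1, and 7.73 and 7.49 in round 2. JRKL, a gene related to transposase-derived proteins, had 6.76 and 7.18 in round 1, and 7.51 and 7.13 in round 2. In both genes round 1 stomach was the lowest and round 2 stomach the highest array, 1.70-fold apart for ANKRD49 and 1.69-fold for JRKL. MSANTD4 had 6.26 and 6.77 in round 1, and 6.77 and 6.58 in round 2, with round 1 stomach alone low. MTMR2, a phosphatase of phosphoinositides, had 10.16 and 10.42 in round 1, and 10.59 and 10.36 in round 2. The centrosomal genes CEP57 and CEP126 were lowest in round 1 stomach too, 0.28 and 0.19 under the mean of the other arrays. The 5 members in which that array was not the lowest were GPR83 (a G protein-coupled receptor), MRE11, CASP4, GUCY1A2 and SLC35F2, a solute carrier.

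A second question was how the rounds differed within each lineage. Implantation, passage and any difference in culture go together with round and cannot be told apart. In stomach the median difference of the 28 members, round 2 minus round 1, was 0.38, and 27 were higher in round 2; the median over all genes was -0.017 and 44.1% were higher. Over all 52 members with a probe set, those below the minimum included, the median in stomach was 0.13. Of the 52, 38 were higher, against 42.6% of all genes with a probe set. At least 1.5-fold higher were 7 members (ANKRD49, CWC15, MAML2, JRKL, ARHGAP42, BIRC2 and CWF19L2), against 1.23% of all genes, and 0 were 1.5-fold lower, against 0.935%. In ovary the median was -0.026 and 13 of the 28 were higher in round 2, near the share of 47.0% over all genes (median -0.0021). At least 1.5-fold higher or lower were 0 members, against 2.41% and 0.983% of all genes. Over all 52 the median in ovary was 0.041 and 29 were higher, against 45.5% of all genes with a probe set. These values follow the titles, and the descriptions of the round 2 samples name the sites inconsistently. With the round 2 arrays exchanged, the medians of the 28 were 0.26 in stomach and 0.16 in ovary. Both round 2 arrays lay above both round 1 arrays in 11 of the 28, against 22.2% of all genes, and below them in 0, against 26.8%.

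The comparison of sites asked what differed between cells from ovarian metastases and from stomach tumours. In round 1 the median difference, ovary minus stomach, was 0.26, with 26 of 28 members higher in ovary. Over all genes above the minimum the median was -0.0053 and 46.2% were higher. MAML2 was the 1 member at least 1.5-fold higher (0.69), against 0.914% of all genes, and 0 were 1.5-fold lower, against 1.11%. In round 2 the members' median was -0.15, with 5 of 28 higher in ovary, while the median over all genes was 0.0076 and 51.9% were higher. Past 1.5-fold, 0 members were higher or lower, against 0.804% and 0.419% of all genes. Over all 52 members the medians were 0.11 in round 1, with 40 higher in ovary, and -0.016 in round 2, with 22 higher. Of all genes with a probe set, 44.5% were higher in ovary in round 1 and 50.4% in round 2. The descriptions of the round 2 samples name the sites inconsistently, and with those arrays exchanged the round 2 median of the 28 was 0.15, the sign of round 1. A positive difference in round 1 followed by a negative one in round 2 was seen in 21 of the 28 members and in 19.8% of all genes. Both ovary arrays lay above both stomach arrays in 2 of the 28, against 13.4% of all genes, and below them in 1, against 11.2%. The 4 differences share arrays in pairs, the round 1 stomach array entering both of those with the large positive medians.

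**Figure D3:**
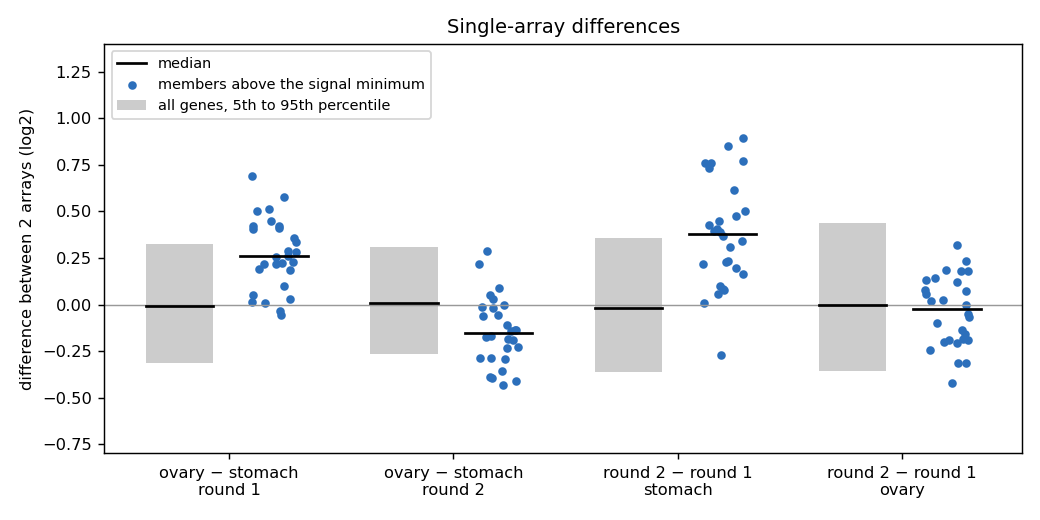
Differences between 2 arrays in log2 units (y axis) for the 4 pairs of arrays (x axis); grey bars span the 5th to 95th percentile of all 14547 genes, blue points are the 28 members above the minimum and black lines are medians. The members' medians are 0.26, -0.15, 0.38 and -0.026 from left to right.

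The fit across all genes called none of them. With limma and Benjamini-Hochberg adjustment, 0 of 14547 genes (0%) had an adjusted p under 0.05 between sites, with 378 at an unadjusted p under 0.05; between rounds the numbers were 0 and 2178, and for the interaction of site and round 0 and 194. The interaction was fitted as a single coefficient, round 1 stomach and round 2 ovary against the other 2 arrays, with the site and round differences left in its error. Fitted differences of round 2 minus round 1 were 0.46 ± 0.17 for BIRC2, 0.29 ± 0.091 for YAP1, 0.30 ± 0.12 for CUL5 and 0.35 ± 0.27 for MAML2, with limma's standard error. With 2 arrays a group the fit leaves 2 residual degrees of freedom. The errors are moderated by limma with the variances of all genes, and the number of arrays limits their precision. Without the round 1 stomach array, the members' median difference between rounds went from 0.21 to 0.053 and that between sites from 0.079 to -0.12.

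The pattern did not end at GPR83 or CUL5. FAM76B, the 1 gene above the minimum inside the stretch that is no member, had 6.86 in stomach and 7.36 in ovary in round 1, and 7.51 and 7.36 in round 2. Just before GPR83, the round 1 stomach value minus the mean of the other 3 arrays was -0.54 for MED17, a Mediator subunit, -0.39 for PANX1, a pannexin channel, and 0.16 for IZUMO1R, the egg receptor of sperm. Just inside, it was -0.019 for GPR83, -0.11 for MRE11 and -0.57 for ANKRD49. At the far end it was -0.30 for ALKBH8, -0.11 for SLC35F2 and -0.39 for CUL5. Beyond, it was -0.13 for ACAT1, a mitochondrial thiolase, -0.18 for NPAT, an activator of histone genes, and -0.20 for ATM, the kinase of break signalling. The values just inside and just outside thus overlapped.

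The 15 nearest genes above the minimum before GPR83 had a median of -0.24 by this measure, 12 of 15 being below 0, and the 15 nearest after CUL5 a median of -0.20, 14 of 15 being below 0. The other 847 genes of chromosome 11 had a median of -0.024, and 13641 genes of other chromosomes 0.015. In consecutive blocks of 15 genes along the chromosome, 10 adjoining blocks, from RAB30 to USP2, had medians under -0.1, and the lowest were the block from ARHGAP42 to ACAT1 (-0.30) and that from GPR83 to JRKL (-0.28). Low blocks were also found away from this run. Beyond it the block from CLMP to NRGN had a median of 0.066, but that from PUS3 to TMEM45B had -0.18 and that from NFRKB to VPS26B -0.12. Before it the block from MRPL48 to XRRA1 had -0.18, and on the short arm that from SVIP to EIF3M had -0.18. Whole chromosomes with at least 100 genes had medians from -0.036 (chromosome 11) to 0.051 (chromosome 22).

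**Figure D4:**
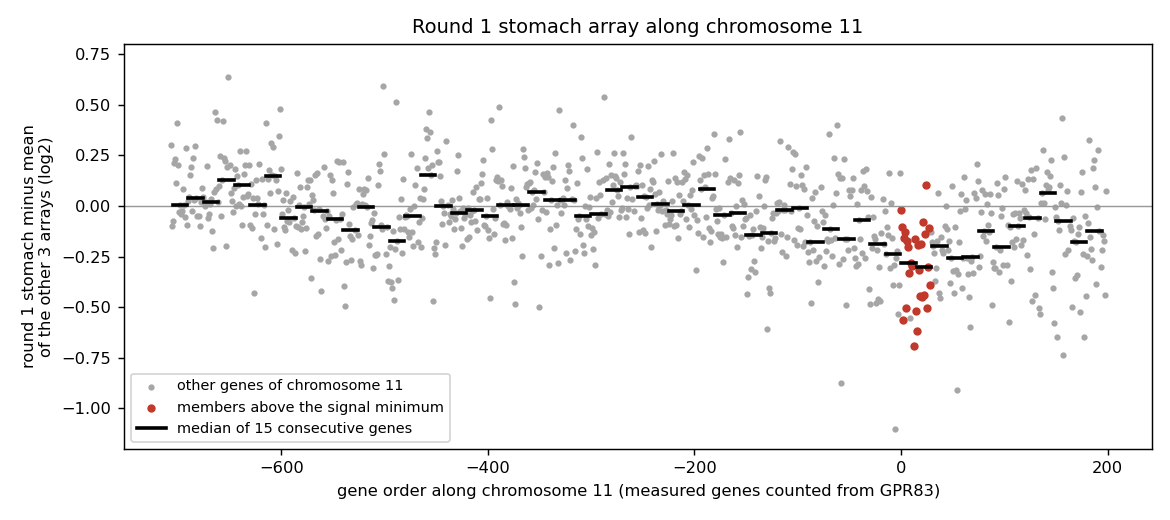
Round 1 stomach minus the mean of the other 3 arrays in log2 units (y axis) for the 906 genes of chromosome 11 above the minimum, in gene order counted from GPR83 (x axis). Members are red, other genes grey, and black bars are medians of 15 consecutive genes; the bars around the members lie at -0.28 and -0.30, and those on either side of them at -0.24 and -0.20.

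Other genes of the members' pathways, none of them a member, were counted from lists, with 0 genes passing the test in either direction between sites or rounds in every list. Of 19 YAP and TEAD targets above the minimum, 13 were higher in round 2, with a median of 0.095; tissue factor (F3) differed by 0.70 and the matricellular gene CCN2 by 0.57. These values are means over the sites, and over all genes above the minimum 45.4% were higher, with a median of -0.019. Taken by lineage, F3 differed by 0.37 (stomach) and 1.02 (ovary) and CCN2 by 0.047 and 1.10. YAP1 itself differed by 0.39 and 0.19, and a link to these targets was not tested. Among 11 partners of BIRC2 and BIRC3 and other inhibitors of apoptosis, 8 were higher in round 2 (median 0.041), NAIP by 0.68 and XIAP by 0.25. In stomach 4 of the 11 were higher and in ovary 8, NAIP by 0.099 and 1.26, where 44.1% and 47.0% of all genes were higher. Of 13 cullin ligase genes, 9 were higher (median 0.074), CUL4B by 0.32 and RBX1, the RING subunit, by 0.32. Of 13 Notch pathway genes, 8 were higher (median 0.041), with HEY1 at 0.45 and DLL1 at -0.35; 4 were higher in stomach and 9 in ovary.

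Outside the stretch, 11 of 13 metalloproteinases and all 4 of their TIMP inhibitors were above the minimum, where 79.0% of all genes were. Of these 15, 4 were higher in round 2 (median -0.072), with TIMP2, an inhibitor, at 0.75 and MMP19 at -0.52. Of 7 inflammasome genes, 6 were higher in round 2 (median 0.074). IL18, the interleukin that CASP1 matures, lies on chromosome 11 beyond CUL5, and it had 8.28 in stomach and 9.20 in ovary in round 1, and 9.26 and 9.13 in round 2. Round 1 stomach was thus the low array for IL18 as well. IL1A was below the minimum, at 4.94 and 4.87 in round 1 and 5.49 and 5.56 in round 2. Of 8 genes of the MRE11 complex and of break signalling, ATM among them, 6 were higher in round 2 (median 0.034). MDC1 and TP53BP1 differed by -0.0043 and 0.021 between rounds, and by 0.24 and 0.18 between sites (ovary minus stomach, mean over rounds). In 7 of the 8 the round 1 stomach value was below the mean of the other arrays, against 46.3% of all genes. ATM and H2AX of this list lie on chromosome 11.

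Markers of gastric carcinoma epithelium had strong signals, KRT8 with 12.54 in stomach and 12.19 in ovary in round 1 and 12.69 and 12.64 in round 2, and EPCAM with 12.05 and 11.82, then 12.09 and 11.90. The 8 leukocyte markers had a summed log2 level of 49.94 in round 1 stomach and 48.93 to 49.64 on the other arrays, and PTPRC, their defining gene, lay between 3.97 and 4.11. For 8 fibroblast markers the sum was 47.66 in round 1 stomach and 46.36 to 47.01 elsewhere, and for 6 endothelial markers 34.84 and 33.83 to 34.74. For 7 markers of ovarian stroma and follicle it was 46.66 in round 1 stomach, and 45.55 to 46.93 elsewhere. These sums take in markers below the minimum, PTPRC among them, and added log2 values give no total of transcripts. Of the leukocyte, fibroblast and endothelial markers above the minimum, 0 of 13 were lower in round 1 stomach than the mean of the other arrays. Lower there were also 1 of 8 epithelial markers and 1 of 5 ovarian markers above the minimum, against 46.3% of all genes. The part of these markers in the result was not tested. The host was a mouse and these are probe sets of human genes, so the markers give no measure of host cell content. In such bulk RNA, fewer cells of a kind and less RNA per cell cannot be told apart.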

How the data were processed

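Per the labels' protocols, TRIzol RNA from cell pellets was fragmented, labelled with biotin and measured on Affymetrix arrays. The authors deposited 1 table of log2 values with probe sets in rows and arrays in columns. The submitters' processing notes name Affymetrix Expression Console. For background correction, normalization and summarization, the sources used here give no setting. Scaling of the arrays to one another would hide any shift common to all transcripts. Values run from 2.25 to 14.24, and array medians from 6.80 to 6.84.

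Of 33297 rows, 19460 carry 1 gene symbol, 1754 several (not used) and 12083 are unnamed here. Symbols were updated by gene identifier to RefSeq (GRCh38.p14), which held 19429 of the 19460; it served for names and gene order, since the values name no build, and coordinates are given for RefSeq promoters alone. Of 18417 genes, 14547 exceeded the signal minimum. Samples were grouped by title. The descriptions of the round 2 samples name the sites inconsistently, so an exchange of both was tried.

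Differences were fitted over all genes with limma 3.58.1 in R 4.3.3 (two-sided, Benjamini-Hochberg adjusted p under 0.05). The members and lists were chosen with earlier results of these data known. Values on every array are given for the 12 members above the minimum with the largest range over the arrays and for MRE11, YAP1, BIRC2, CASP1, CASP4, CUL5, MMP1 and MMP7, a rule that also named BIRC3. CCDC82, FAM76B, KRT8, EPCAM and IL18 were added after their values were seen. The comparison of round 1 stomach with the other arrays, and the blocks, were chosen after seeing the data. Alternatives were other signal minima, quantile normalization, centring, the mean of a gene's probe sets, a trended prior, a replicate block, other fold thresholds and leaving out each array. The plots used matplotlib 3.10.9.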

Additional observations from a re-analysis of the deposited data

Results flagged for a closer look

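As the arrays are titled, the median difference between sites had opposite signs in the rounds; with the round 2 arrays exchanged it was 0.15 in round 2, the sign of round 1. Over the 28 members above the minimum, the median of the round 2 difference (ovary minus stomach) minus the round 1 difference was -0.40. The change was -1.08 for MAML2, -1.01 for ARHGAP42 and -0.81 for JRKL, the members at least 0.32 higher in ovary in round 1 and at least 0.32 lower in round 2 on the log2 scale. The share of all genes that meet both limits was not taken, so these members are not read as unusual. Each round has 1 array per site, so the difference was not tested within the members, and limma called 0 of 14547 genes for the interaction (194 at an unadjusted p under 0.05), in a fit of that single coefficient with the site and round differences left in its error. For ARHGAP42 it was absent from the second probe set. No cause was tested.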

How the results depend on the processing

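Of 130 alternative values, many of them counts of 0, 117 did not reverse direction and moved by less than the spread between replicates (counts: stayed within 1.5 times). That spread was 0.29 for the medians between sites and between rounds, so large relative moves pass. With no minimum (52 members) the median was 0.13 between rounds in stomach, 0.11 between sites in round 1 and -0.016 in round 2. limma's counts of 0 called genes say nothing about stability, and with an array left out 1 group holds a lone array, assumed to vary like the other group. The fits with a replicate block called 0 between sites (916 at an unadjusted p under 0.05) and 0 between rounds (2358). Deviations from the site means correlated at 0.41 between samples of a round. Those from the round means correlated at 0.10 between samples of a site. With 2 arrays a site, both rounds give the same correlation by construction. The rounds were not taken as pairing the samples. Leaving out an array moved the members' median site difference between -0.12 and 0.26, the low value being without the round 1 stomach array, and the median round difference between 0.053 and 0.27. With the round 2 arrays exchanged, the round 2 site difference became 0.15, and the round difference 0.26 in stomach and 0.16 in ovary. As titled, the ovary round difference was 0.013 with the mean of a gene's probe sets and 0.041 with no minimum. Round 1 stomach against the others was -0.13 with no minimum (52 members), -0.31 with centring and -0.26 with quantile normalization. Members at least 0.32 apart on the log2 scale numbered 16 higher in round 2 stomach, 11 higher in ovary in round 1, 5 lower in ovary in round 2 and 1 lower in round 2 ovary; at 2-fold the first and second counts were 0. With centring, 2 members were 1.5-fold higher in ovary in round 1, against 1 on the deposited values, where 0.914% of all genes were. On the second probe sets the difference between rounds was -0.0038 for ARHGAP42 and 0.38 for CCDC82. The changes of count with other folds follow from the thresholds, and the cause of the other shifts was not tested. Signal below the minimum limits what can be read for 24 members.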
